A study of Mus musculus with 36 samples.

Results

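Diaphragm of mdx mice was compared with diaphragm of control mice at 23 days of age, across all genes on the array. The comparison rests on 6 arrays, 3 mdx and 3 control, of the 36 arrays in the series, which covers 6 ages from 7 to 112 days. The diaphragm is the main breathing muscle. Mice of the mdx strain carry a point mutation in Dmd, the dystrophin gene, that stops production of full-length dystrophin in every tissue, so no promoter or Cre limits the defect to one cell type. The labels give genotype, age and muscle but no strain of the controls, sex, treatment or pooling. The replicates carry numbers, and no label calls them different animals; a p-value here therefore weighs a difference against array-to-array spread that could be purely technical.

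Each array was hybridised with labelled material prepared from total RNA. It gives 1 signal, an intensity on a linear scale, for each probe set, a group of short probes that reads 1 transcript. A probe set was tested where at least 3 of the 36 arrays lay above a signal of 374.5, which left 9291 probe sets. A gene dim in controls could pass this filter through mdx arrays alone, which favours rises in the counts and medians of lists. Differences are mdx minus control on the scale log2(signal + 32), which understates the change of dim genes, and are given with the standard error (SE) of the fit. A rise or fall is an adjusted p under 0.05 from limma with Benjamini-Hochberg adjustment over all 9291 probe sets. The fit pooled the spread of all 36 arrays in 12 groups, so arrays of other ages share in each SE and p. For arrays, precision is limited by their number.

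Dystrophin ties the cytoskeleton of a muscle fibre to the matrix around it, and fibres without it tear and die when the muscle contracts. In mdx muscle, bouts of fibre death begin around weaning: chemokines draw in monocytes and neutrophils, macrophages clear the debris, and satellite cells, the stem cells of muscle, divide, differentiate and fuse into new fibres. New fibres express embryonic and perinatal forms of the contractile proteins and the fetal acetylcholine receptor before they mature.

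The 3 control arrays correlated with each other at r between 0.965 and 0.975 and the 3 mdx arrays at 0.938 to 0.963, over all probe sets tested. Across genotypes r was 0.919 to 0.932 for mdx array 1, 0.943 to 0.955 for mdx array 2 and 0.954 to 0.960 for mdx array 3. Median signal was 450.65 to 515.25. Signal of the 3' actin control divided by that of the 5' one, a common index of RNA quality, was 0.862 to 0.944 on control arrays and 0.448, 0.879 and 0.586 on mdx arrays 1, 2 and 3. The same ratio for Gapdh was 0.350 to 0.361 on control arrays and 0.431, 0.493 and 0.438 on mdx arrays, so it separated the groups while the actin ratio did not. All 14 genes listed as marks of skeletal muscle were tested. Their median difference was -0.37, 2 lay above 0, and in 6 the mdx arrays lay wholly below the controls. The lowest signal on any array was 21726.4 for Myl1 and 25590.1 for Pygm, and 385.6 for Acta1, on mdx array 2. The highest signal of the 11 liver genes tested was 738.3, for Alb on mdx array 3. In the lists of endothelial, smooth muscle, adipocyte, nerve, mesothelium, liver, erythroid, cartilage and keratinocyte markers 0 members were called. The fibroblast list had 1 call of 10, S100a4. Each of the other lists had 4 to 11 members tested. Over all probe sets 2.68% were called higher and 0.807% lower, and in lists this short 0 calls lies near that share.

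Dmd read 330.0, 610.9 and 465.2 on control arrays and 138.9, 204.1 and 169.3 on mdx arrays 1, 2 and 3. All mdx arrays lay below all control arrays. The difference was -1.28 ± 0.299 (SE, n = 3 per group, limma adjusted p = 0.00954), and the call ended without control array 2 (-1.08, adjusted p = 0.091) or mdx array 1 (-1.16, adjusted p = 0.0888). The mutated transcript is still made, so this level checks the labels only in part. Among the other tested members of the dystrophin complex and its relatives 0 of 11 were called; Utrn, which encodes the dystrophin relative utrophin, read 452.2 to 1085.2 in controls and 453.5 to 707.0 in mdx (-0.29), and differed by -1.01 on a second probe set (adjusted p = 0.187).

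At 23 days 249 probe sets were higher in mdx, 2.68% of those tested, and 75 were lower, 0.807%. Counts of calls in gene lists stand beside these shares, and the lists were chosen with earlier results of these data known. All 3 mdx arrays lay above all 3 control arrays for 245 of the 249, against 12.6% of all probe sets tested, and all mdx arrays lay below all controls for 69 of the 75, against 10.3%. The calls were made on these same arrays, so this separation follows in part from the calls and is no separate evidence. The median difference of the 249 rises was 1.13. The largest rises with a gene name were those of Myl4 and Myh3, which encode contractile proteins of immature muscle, and of Ccl2 and Ccl7, which encode chemokines that attract monocytes. Higher still was a probe set without a symbol in the annotation, 97519_at, which read 206.1 to 294.6 in controls and 30267.9, 12815.6 and 6635.5 in mdx, a difference of 5.60 ± 0.662 (SE, adjusted p = 7.96e-07). Without mdx array 1 the counts were 106 higher and 19 lower, and 102 of those 106 were among the 249. Without mdx array 3 they were 320 and 229. With either of control arrays 1 and 3 left out, 164 probe sets were higher. Without control arrays 1, 2 or 3, 37, 33 and 39 were lower. With the actin ratio as a covariate, 220 were higher and 65 lower, and 217 of the 220 were among the 249. With the Gapdh ratio in its place, 260 were higher and 68 lower, and 246 of the 260 were among the 249.

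**Figure D1:**
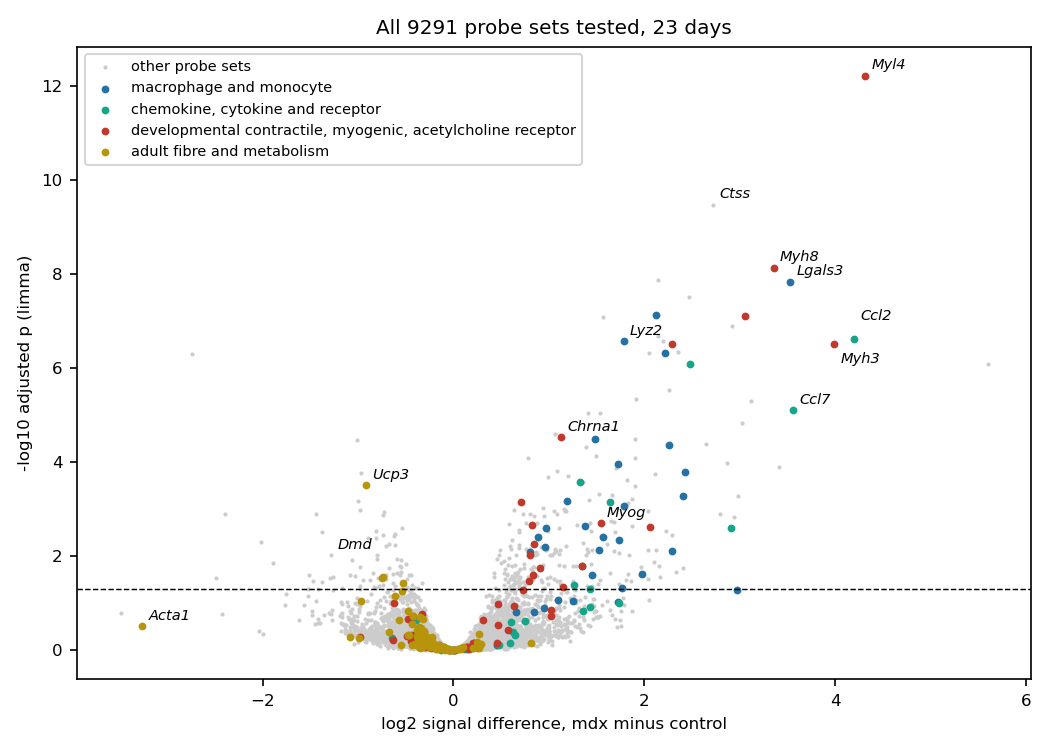
The log2 difference, mdx minus control, of the 9291 probe sets (x axis) against −log10 of the limma adjusted p (y axis), with 0.05 as the dashed line; coloured points are members of gene lists. Most macrophage genes, and a minority of chemokine and immature-muscle genes led by Myl4 at 4.32, lie right of 0 and above the line. Adult fibre and metabolic genes lie near or to the left of 0.

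The chemokine genes were among the widest-spread rises. Ccl2, whose product draws in monocytes through the receptor CCR2, read 313.7, 211.8 and 221.9 on control arrays and 8373.5, 7969.5 and 1945.0 on mdx arrays 1, 2 and 3. Mdx arrays 1 and 2 were nearly alike and array 3 was far lower, though above every control. The difference was 4.20 ± 0.458 (SE, adjusted p = 2.41e-07). Ccl7, a close relative that acts on the same receptor, read 72.1 to 115.4 in controls and 2480.8, 2100.7 and 603.7 in mdx, with the same order of arrays (3.56 ± 0.473, adjusted p = 7.81e-06). Ccr2 itself, carried by the monocytes that enter injured tissue, rose from 308.4 to 394.1 in controls to 2579.2, 1846.1 and 1894.6 in mdx (2.48 ± 0.293, adjusted p = 7.96e-07). Its 3 mdx arrays lay close together, unlike those of its ligands.

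In all, 8 of 26 tested chemokine, cytokine and receptor genes rose and 0 fell, with a list median of 0.70 against -0.01 over all probe sets. The array held 38 genes of the list, and those under the filter on signal were not tested. Ccl7 lay under that cut on every control array at 23 days, so the filter can tilt these values upward. Ccl9, another attractant of myeloid cells, rose (1.64 ± 0.296, adjusted p = 0.000717), as did Tnfrsf1b, a receptor for tumour necrosis factor (1.33 ± 0.222, adjusted p = 0.00026). Il1rn, the natural antagonist of interleukin 1, read 30.3 to 135.7 in controls and 1258.3, 641.0 and 293.7 in mdx, highest on array 1 and lowest on array 3 (2.91, adjusted p = 0.00245). Its call ended without mdx array 1 (2.42, adjusted p = 0.0522), and 5 members of the list were called then. Cxcr4 and Csf2rb2 also passed, and lost the call in 3 and 4 of the 6 fits that each left out 1 array, including the one without mdx array 1 (adjusted p = 0.143 and 0.273). Other attractants of monocytes did not pass. Ccl12 read 93.0 to 227.8 in controls and 599.7, 601.6 and 333.3 in mdx (1.44, adjusted p = 0.0505), and Ccl8 37.6 to 50.3 and 323.9, 87.7 and 330.7 (1.74, adjusted p = 0.0994). Cxcl12, the ligand of CXCR4, differed by -0.39, -0.45 and 0.29 on its 3 probe sets, with 0 calls.

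Of 32 tested macrophage and monocyte genes 23 rose and 0 fell. All 32 differences were above 0, their median was 1.55, and in 30 of the 32 the mdx arrays lay wholly above the controls. In whole muscle, more cells of a type and more RNA per cell cannot be told apart. Lgals3, which encodes galectin-3, a lectin abundant in activated macrophages, read 394.4, 422.5 and 314.7 in controls and 8146.5, 4886.0 and 2544.3 in mdx (3.53 ± 0.328, adjusted p = 1.44e-08). Array 1 was highest and array 3 lowest. The same order held for Cd68, a lysosomal membrane protein of macrophages, at 639.9 to 944.9 in controls and 4877.8, 2351.7 and 1658.6 in mdx (1.72 ± 0.271, adjusted p = 0.000109). It held too for Mpeg1, a pore-forming protein of macrophages, at 793.3 to 1144.0 and 9704.8, 3644.1 and 3157.1 (2.26 ± 0.334, adjusted p = 4.23e-05). Over the list, mdx array 1 was the highest of the 3 for 28 genes and array 3 the lowest for 25.

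Pan-leukocyte and myeloid genes moved likewise. Tyrobp, an adaptor of myeloid receptors, rose by 2.22 ± 0.255 (SE), Cd52 by 2.13 ± 0.215, Lyz2, which encodes lysozyme, by 1.79 ± 0.197 and Cd53 by 2.42 ± 0.391, with adjusted p from 7.35e-08 to 0.000159. Itgam, the alpha chain of the integrin CD11b/CD18, went against the order of arrays, with 46.2 to 80.6 in controls and 332.9, 471.7 and 539.4 in mdx (2.41 ± 0.424, adjusted p = 0.000534). Adgre1, which encodes the macrophage antigen F4/80, read 75.5 to 278.8 and 1062.8, 896.1 and 782.0 (2.29, adjusted p = 0.00768). Its call ended without control array 2 (adjusted p = 0.0837) or mdx array 1 (0.0609). Mrc1, the mannose receptor of tissue-resident and repair-type macrophages, kept its call under all 18 alternatives and rose with little spread, from 616.6 to 627.5 in controls to 1354.3, 1299.8 and 1107.8 (0.97 ± 0.196, adjusted p = 0.00245).

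Without mdx array 1 the number of macrophage and monocyte genes called was 12. Csf1r, the receptor for the macrophage growth factor, then stood at 0.59 (adjusted p = 0.102) against 0.88 (0.00381) with all arrays, and Ptprc, the leukocyte antigen CD45, at 1.35 (0.0867) against 1.52 (0.00743). Laptm5, Coro1a, Pld4 and Lst1 also lost their calls in that fit, and in no other that left out 1 array (adjusted p = 0.0815, 0.129, 0.0571 and 0.105). Chil3, a lectin made by alternatively activated mouse macrophages, read 1039.4 and 1065.9 on mdx arrays 1 and 2 and 303.1 on array 3, and passed narrowly (1.77, adjusted p = 0.0474), a call that ended in 5 of the 6 fits leaving out 1 array (adjusted p = 0.115 to 0.317). Arg1, the arginase of the same state, showed that pattern too, with 32.3 to 101.8 in controls and 1084.3, 1125.5 and 350.5 in mdx, and did not pass (2.97, adjusted p = 0.0532).

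**Figure D2:**
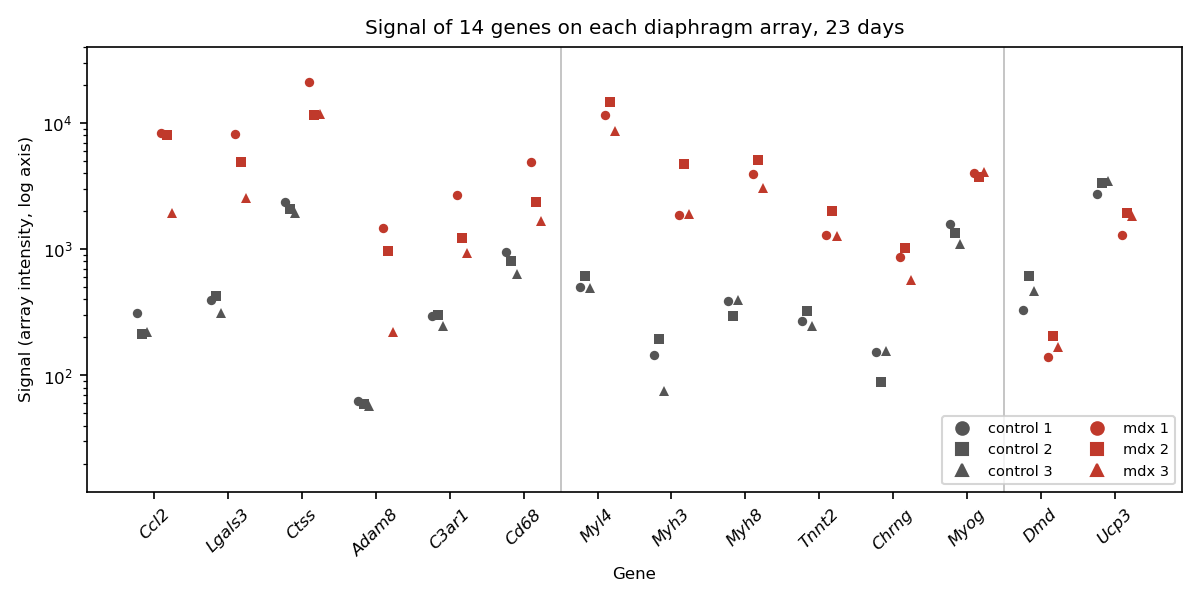
Signal (log axis) of 14 genes on each of the 3 control arrays (grey) and 3 mdx arrays (red), with the marker shape giving the array number; vertical lines separate infiltration genes, regeneration genes and falls. For Ccl2, Lgals3, Adam8 and Cd68 mdx array 3 is lowest, for Myl4, Myh3 and Tnnt2 mdx array 2 is highest, and for Myog the mdx arrays coincide. Chrng is drawn from its second probe set.

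Several enzymes and receptors of debris clearance rose. Ctss, cathepsin S, the elastin-cutting protease of antigen-presenting cells, read 2381.8, 2087.3 and 1932.0 in controls and 21014.8, 11587.2 and 11737.7 in mdx (2.72 ± 0.21, adjusted p = 3.3e-10). Napsa, another lysosomal protease, read 43.9 to 84.4 and 1250.0, 898.0 and 371.0 (3.12 ± 0.404, adjusted p = 4.92e-06). Of 19 tested lysosomal proteases and inhibitors 7 rose and 0 fell (median 0.59), the others being Cstb, Lgmn, Gusb, Ctsc and Ctsh. The calls of Gusb and Cstb stood in every fit that left out 1 array; that of Ctsh ended without control array 1 or 2 or mdx array 1 (adjusted p = 0.0891, 0.0675 and 0.159). Of 4 Fc receptor genes 2 rose, Fcgr1 and Fcgr2b, and 1 without mdx array 1. Fcgr1, the high-affinity receptor for antibody, rose on both of its probe sets, by 3.02 and 1.67, and Fcgr2b, the inhibitory receptor, by 1.55, while Fcgr3 and Fcgrt differed by 0.86 and -0.10.

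Among 12 complement genes 4 rose: C1qa, C1qb and C1qc, the chains of C1q, which macrophages make, and C3ar1, a receptor for a complement fragment. C3ar1 read 248.0 to 300.8 in controls and 2682.5, 1235.9 and 936.8 in mdx (2.26 ± 0.285, adjusted p = 2.96e-06). The C1q chains rose by 1.08, 1.36 and 1.41, while a second probe set of C1qb differed by -0.24 (adjusted p = 0.833), and these 4 calls stood in each fit that left out 1 array. The other 8 complement genes differed by -0.60 to 0.83, the components C2 and C1ra and the regulators Serping1 and Clu lying below 0.

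In other leukocyte classes the calls were 1 of 11 class II, 1 of 10 neutrophil, 2 of 8 B and plasma cell and 0 of 10 T and NK cell genes, beside 2.68% of all probe sets; in lists this short, 0 calls lies near that share. Of 11 class II antigen presentation genes only Cd74, the invariant chain, passed (0.92, adjusted p = 0.00625; 0.86 and 0.0574 without mdx array 1). Some class II chains did not follow the array order of the macrophage genes. H2-Aa read 5784.6, 5745.8 and 7911.1 on mdx arrays 1, 2 and 3 (1.05, adjusted p = 0.181) and H2-Eb1 3727.4, 3126.8 and 5502.2 (0.70, adjusted p = 0.182), both highest on array 3. Over the list array 1 was highest for 5 of the 11 genes, array 2 for 2 and array 3 for 4. Class I and interferon genes gave 0 calls of 24 (median 0.30), and T and NK cell genes 0 of 10 (0.24).

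Of 10 neutrophil genes S100a8, a subunit of calprotectin, was the only call. It read 30.8 to 112.2 in controls and 719.9, 695.6 and 247.1 in mdx (2.33, adjusted p = 0.0218), and lost the call without control array 1 or mdx array 1 or 2 (adjusted p = 0.152, 0.159 and 0.103). Its partner S100a9 read 296.3, 148.8 and 37.9 on mdx arrays against 24.0 to 141.1 in controls (0.67, adjusted p = 0.789). The granule genes Camp, Elane and Ltf differed by -0.02 to 0.12. Lcn2, another granule gene, differed by 0.67 and 0.98 on its probe sets (adjusted p = 0.439 and 0.201). Over the list 7 of 10 genes lay above 0, and differences ran from -0.57 to 2.33 with a median of 0.18. Mast cell genes gave 0 calls of 5.

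All 8 B and plasma cell genes lay above 0 (median 0.76), with 2 calls, Jchain and Cd24a, and 0 calls without mdx array 1 or control array 1 or 3. Jchain, which joins secreted antibody, read 319.9 to 649.9 in controls and 2270.8, 920.6 and 981.7 in mdx (1.52, adjusted p = 0.0379), and Ighm, the heavy chain of IgM, 3683.8 to 4460.7 and 16038.1, 6400.5 and 6621.3 (1.11, adjusted p = 0.109). The other 7 probe sets of Ighm differed by -0.39 to 0.22, with 0 calls. On the probe sets given, both genes were highest on mdx array 1. Several kappa light chain probe sets behaved alike: Igkv4-70 read 2675.6 on mdx array 1 and 609.5 and 579.0 on arrays 2 and 3, against 251.2 to 406.8 in controls, and stood at 0.75 (adjusted p = 0.591) without array 1, against 1.46 (0.0438) with all arrays. Members of this family share sequence, so which gene was read is uncertain.

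Some genes linked to membrane damage and cell stress rose. Of 18 annexin, S100 and membrane repair genes 5 rose and 0 fell. S100a4, also a fibroblast and macrophage gene, read 556.8 to 754.1 in controls and 4141.0, 2779.9 and 2419.9 in mdx (2.14 ± 0.231, adjusted p = 2.08e-07). Anxa1, a phospholipid-binding protein that limits inflammation, rose by 0.94 ± 0.173 (adjusted p = 0.000919), and Anxa4 by 0.61 ± 0.132 (0.00454), the latter with almost no spread in mdx (2303.2, 2409.4 and 2224.9). The count was 3 without mdx array 1 or control array 3; without the latter Anxa4 stood at 0.47 (adjusted p = 0.0659), and without the former S100a13 at 0.40 (0.111) and S100a6 at 0.69 (0.209). The call of S100a6 also ended without any 1 control array or mdx array 2 (adjusted p = 0.0562 to 0.0838).

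Mt2, a metal-binding protein induced by stress and cytokines, read 3544.5 to 5499.7 in controls and 24503.6, 24038.7 and 12576.9 in mdx (2.05 ± 0.235, adjusted p = 4.85e-07). The related Mt1 overlapped between groups, with 6501.5 on mdx array 3 inside the control range of 4616.1 to 6830.7 (0.92, adjusted p = 0.0176), and lost the call without control array 1 or mdx array 1 or 2 (adjusted p = 0.141, 0.113 and 0.203). These were 2 of 21 oxidative stress and iron genes. Of 27 immediate early and heat shock genes 3 rose, Egr1, Egr2 and Ier3 (0.84, 1.25 and 0.73), and their calls ended in 3, 5 and 6 of the 6 fits that left out 1 array. Junb, another immediate early gene, rose on the probe set that does not stand for it in the list, from 367.6 to 508.0 in controls to 2356.2, 1821.7 and 1405.4 in mdx (2.04 ± 0.381, adjusted p = 0.00109), and did not pass on the other (1.19, adjusted p = 0.203). Fos, Atf3 and Hspa1a did not pass (0.49, 0.39 and -0.50; adjusted p = 0.403, 0.559 and 0.323).

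Of 16 cell death genes Cdkn1a, a cell cycle inhibitor also used in muscle differentiation, rose (0.79, adjusted p = 0.0336) and Bnip3, a mitochondrial death and mitophagy protein, fell (-0.70, adjusted p = 0.0305). Both calls were fragile, ending in 4 and 5 of the 6 fits that left out 1 array. The median of the list was -0.08. None of 15 genes of muscle proteolysis passed (median -0.11), the ubiquitin and proteasome genes among them.

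Regeneration genes included Myl4, the rise with the lowest adjusted p of the comparison. To show what their promoters hold, the 250 bases before the start of each gene, as RefSeq gives them for GRCm38.p6, were searched for the E-box CAGCTG, the form of CANNTG that MyoD-family factors favour; the word reads the same on both strands and is contained in CANNTG. Of the 17 called rises in the developmental contractile, myogenic and acetylcholine receptor lists 15 had a promoter entry, 17 entries in all, and 5 of these (29.4%) held CAGCTG, against 13% of all 32851 entries. CANNTG was in 70.6% of the 17 and 66.2% of all. The 5 matching stretches are printed below, 5′ to 3′ on the gene's strand, with the match in capitals; a match is a description of the sequence, not a site shown to be bound.
Chrna1, chr2:73580365-73580442, minus strand: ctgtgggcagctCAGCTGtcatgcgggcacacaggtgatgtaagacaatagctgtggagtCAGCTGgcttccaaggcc
Chrng, chr1:87205644-87205696, plus strand: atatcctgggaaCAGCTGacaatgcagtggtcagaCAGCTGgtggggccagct
Tnnt2, chr1:135836099-135836194, plus strand: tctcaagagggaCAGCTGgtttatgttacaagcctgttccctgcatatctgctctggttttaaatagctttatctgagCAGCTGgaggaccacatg
Mybph, chr1:134193357-134193386, plus strand: gacctgaccccaCAGCTGggaatggtttgc
Id2, chr12:25096271-25096300, minus strand: aatttgccacccCAGCTGggctctcgcccg

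The pairs of CAGCTG begin 92 and 44 bases before the start of Chrna1, 155 and 132 before Chrng and 223 and 157 before Tnnt2; Mybph and Id2 have 1 each, at 79 and 196. Among the 23 called macrophage genes, which stand beside them for comparison, 14 had an entry and 3 of their 17 entries (17.6%) held it. Myog, Myh3, Myh8, Myl4 and Ankrd1 held none in this window, whose letters say nothing of more distant elements.

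Of 19 contractile genes of developing muscle 7 rose and 0 fell; 9 lay above 0, and the list median was -0.04. Myl4, the embryonic and atrial light chain of myosin, read 506.7, 616.3 and 492.3 in controls and 11471.0, 14539.8 and 8594.6 in mdx, 21.4 times higher in mean signal (4.32 ± 0.256, adjusted p = 6.03e-13). A second probe set for the gene did not pass (0.39, adjusted p = 0.43). Myh3, embryonic myosin heavy chain, read 145.0, 194.2 and 75.7 and 1867.5, 4699.0 and 1884.7 (3.99 ± 0.445, adjusted p = 3.12e-07). Arrays 1 and 3 were nearly equal for it and array 2 stood well above them.

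Myh8, the perinatal heavy chain, read 295.0 to 393.7 and 3913.5, 5120.1 and 3077.8 (3.36 ± 0.297, adjusted p = 7.28e-09), and Tnnt2, the cardiac and embryonic troponin T whose promoter is printed above, 245.5 to 326.6 and 1302.7, 2006.4 and 1274.2 (2.29 ± 0.255, adjusted p = 3.12e-07). Mdx array 2 was thus highest for Myl4, Myh3, Myh8 and Tnnt2, none of which lost its call under any of the 18 alternatives. Ankrd1, a stress-responsive protein of the sarcomere, followed the other order, with 264.9 to 334.1 in controls and 4006.0, 3238.5 and 1370.4 in mdx (3.05 ± 0.311, adjusted p = 7.79e-08).

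Other calls of the list were smaller. Mybph, myosin-binding protein H, rose by 0.91 (adjusted p = 0.0174), a call that ended without control array 3 or mdx array 1 or 2 (adjusted p = 0.116, 0.169 and 0.0604). Myl6b read 6172.0 and 4357.4 on mdx arrays 1 and 2 but 1453.9 on array 3, below all controls (1467.0 to 1598.8), and its call (1.15, adjusted p = 0.0458) ended in 5 of the 6 fits that left out 1 array. The other 12 members, among them Actc1, Nppa and slow fibre genes shared with immature muscle, differed by -0.98 to 0.47.

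Transcription factors of myogenesis were among the rises. Myog, myogenin, which drives myoblasts into differentiation, read 1580.9, 1354.3 and 1100.4 in controls and 4027.8, 3737.7 and 4063.2 in mdx (1.54 ± 0.305, adjusted p = 0.00195). Its 3 mdx arrays were almost equal, with an SD of 0.0657 on the log2 scale; the median SD of the 36 myogenic and satellite cell genes tested was 0.286 in mdx. Myod1, which commits cells to the muscle lineage, read 2476.4 to 3375.8 and 5390.8, 5995.9 and 4900.1 (0.83 ± 0.165, adjusted p = 0.00221).

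In all, 8 of 36 myogenic and satellite cell genes rose and 0 fell, with a median of 0.16. Beside Myog and Myod1 these were Peg3, a marker of activated satellite cells (0.71 ± 0.128, adjusted p = 0.000713; 0.82 and -0.30 on its other probe sets, not called), Id2, Ncam1, Cxcr4, Dlk1 and Cdkn1a. The calls of Myog, Myod1 and Peg3 stood under all alternatives; 3 members were called without mdx array 1 and 5 without control array 1 or 2 or mdx array 2. Myf5 read 251.8 to 304.3 and 433.2, 439.8 and 462.7, and the satellite cell adhesion gene Vcam1 467.0 to 479.4 and 1036.9, 850.7 and 600.5; neither passed (0.64 and 0.73; adjusted p = 0.116 and 0.0522).

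Receptors of immature fibres rose on every mdx array. Chrng, the fetal gamma subunit of the acetylcholine receptor, read 299.3 to 377.1 and 1374.2, 1863.6 and 1302.7 (2.06 ± 0.415, adjusted p = 0.00242), and its second probe set rose by 2.36. Chrna1, the alpha subunit, read 1031.1 to 1266.4 and 2325.7, 2711.1 and 2436.9 (1.13 ± 0.162, adjusted p = 2.93e-05). These were 2 of 9 receptor and junction genes. Both were highest on mdx array 2, as were Myh3 and Myh8.

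Of 25 fusion and cytoskeleton genes 6 rose, 4 of them beta tubulins: Tubb6, Tubb2a, Tubb5 and Tubb3 (1.56, 1.18, 0.61 and 0.57). The probe sets that rose are of a type that can bind several family members, and other probe sets of Tubb2a, Tubb3 and Tubb5 did not pass (0.08, -0.11 and 0.37). Tubb6 read 2782.9 to 3927.0 and 12854.4, 9784.6 and 6886.2 (SE 0.161, adjusted p = 8.34e-08). Tmsb10, an actin-binding peptide, and Capg, an actin-capping protein of macrophages, made up the 6 (0.82 and 1.45). The count was 3 without mdx array 1 or control array 3. Actb fell on 1 probe set, with 4284.4 to 5607.9 in controls and 2291.5, 2345.1 and 1227.1 in mdx (-1.38 ± 0.284, adjusted p = 0.00298), and differed by -0.05 on the other. The actin 3' to 5' ratio was lower on mdx arrays 1 and 3; its part in the fall was not tested beyond the fit with it as a covariate, in which the call stood.

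Cell cycle genes gave 1 call of 32, 3.13% beside 2.68% of all probe sets. It was H2az1, a histone variant (0.81, adjusted p = 0.032), which ended in 5 of the 6 fits that left out 1 array (adjusted p = 0.0516 to 0.328). Plk1, a mitotic kinase, rose on a dim probe set that does not stand for it in the list (1.73, adjusted p = 0.0386) and differed by -0.05 and 0.54 on the others. Of the 32 genes 29 lay above 0, with a median of 0.33. The arrays disagreed: the list stood at 0.56 above the control mean on mdx array 1, 0.01 on array 2 and 0.40 on array 3, while control arrays differed among themselves by 0.10. Ccnb2, cyclin B2, read 817.3 to 1033.7 in controls and 2077.3, 815.8 and 1717.2 in mdx (0.59, adjusted p = 0.212), and Kif20a, a mitotic kinesin, 185.5 to 289.3 and 834.6, 235.6 and 479.9 (0.87, adjusted p = 0.326; 1.33 and 0.0838 on its other probe set). Array 2 lay inside the control range for Kif20a and just below it for Ccnb2. Pcna, the replication clamp, read 1978.0 to 2573.6 and 4456.0, 3115.5 and 3086.8 (0.67, adjusted p = 0.109), with all mdx arrays above the controls. Mdx array 2, highest for the embryonic myosin, was the lowest of the mdx arrays for 24 of the 32 genes.

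Of 26 collagen and collagen-processing genes 1 rose, 3.85% beside 2.68% of all probe sets. It was Col8a1 (0.67, adjusted p = 0.0345; ended without any 1 of the 6 arrays, adjusted p = 0.0606 to 0.193), and the list median was -0.04. Col1a1 read 29763.2 to 35412.8 in controls and 26284.6 to 27582.6 in mdx (-0.26, adjusted p = 0.833), and Col3a1 differed by -0.17. Among genes of proteins that modulate cell contact with matrix 5 of 22 were called. The median of that list was only 0.04, with 13 of the 22 above 0. The 5 include Lgals3, counted above among the macrophage genes. Postn, periostin, read 5083.8 to 5194.0 and 8075.3, 11484.3 and 11555.3 (0.99 ± 0.163, adjusted p = 0.000204), lowest on mdx array 1. Tnc, tenascin-C, a matrix protein of injured and growing tissue, read 318.7 to 611.3 and 1851.5, 2034.6 and 1617.6 (1.91 ± 0.294, adjusted p = 8.08e-05), with its mdx arrays close together.

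Of 16 matrix proteases and inhibitors 4 rose and 0 fell, and the 4 calls stood without any 1 array. Timp1, an inhibitor of metalloproteinases, read 1361.1 to 2281.3 and 11987.5, 9973.5 and 5224.4 (2.20 ± 0.242, adjusted p = 2.64e-07). Mmp12, the macrophage elastase, read 128.2 to 227.8 and 2112.4, 1646.6 and 1132.4 (2.87 ± 0.448, adjusted p = 0.000104), and Adam8, a protease of leukocytes and injured muscle, 57.6 to 62.6 and 1484.6, 969.2 and 222.4 (2.98 ± 0.526, adjusted p = 0.000534). Adam8 had the largest SD between mdx arrays of all named rises, 1.35, against tightly grouped controls. Serpina3n, a protease inhibitor raised in regenerating muscle, was highest on mdx array 2 (3881.9, 5563.1 and 2068.3 against 341.7 to 779.8; 2.65 ± 0.39, adjusted p = 4.04e-05). In the transforming growth factor beta list 0 of 22 rose and Ltbp4, a binding protein for its latent form, fell narrowly (-0.48, adjusted p = 0.0459), a call that ended in 4 of the 6 fits leaving out 1 array (adjusted p = 0.1 to 0.443).

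Genes of the mature fibre lay slightly below the controls with few calls. The medians were -0.30 for 15 fast fibre genes, -0.26 for 11 slow fibre genes, -0.25 for 21 of glycolysis, -0.25 for 22 of fatty acid oxidation and -0.23 for 41 of oxidative phosphorylation, with 0, 0, 1, 2 and 1 falls called and 0 rises. Of the oxidative phosphorylation genes 4 lay above 0, and of the fast fibre genes 2. Ucp3, a mitochondrial carrier of muscle, read 2753.1 to 3451.3 and 1291.1, 1946.2 and 1817.4 (-0.92 ± 0.155, adjusted p = 0.00031), the one metabolic fall that stood in every fit leaving out 1 array. The falls of Cpt2, Phkg1 and Ndufs4 (-0.53, -0.75 and -0.74) ended without mdx array 1 (adjusted p = 0.486, 0.14 and 0.323) among others. Acta1, the skeletal actin, read 4577.9 to 12612.6 and 847.8, 385.6 and 1150.3 without passing (-3.26, adjusted p = 0.306), and Pvalb, parvalbumin, differed by 0.25 and -1.06 on its 2 probe sets, the latter called (adjusted p = 0.0122).

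Several of the largest falls came from a probe set whose gene read otherwise on another. Erdr1 fell most, from 9462.9 to 11201.0 in controls to 1487.4, 1877.7 and 1200.2 in mdx (-2.74 ± 0.315, adjusted p = 4.96e-07), while its other probe set differed by 0.12. Tbc1d10a fell by 2.39 on 1 probe set and differed by -0.30 on the other. Mpdz, a scaffold protein, read 1061.5 to 1595.8 and 70.5, 513.5 and 934.8 (-1.89, adjusted p = 0.0138), a call that ended without mdx array 1 (-0.95, adjusted p = 0.266) or control array 1 or 2 (0.0649 and 0.0681). Its other 2 probe sets did not pass (-0.21 and -0.46). Ramp1, a partner of the receptor for calcitonin gene-related peptide and read by 1 probe set, fell from 11598.1 to 12630.9 to 4880.6, 5677.2 and 7699.7 (-1.01 ± 0.147, adjusted p = 3.34e-05).

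The mdx arrays lay further apart than the control arrays, mainly through arrays 1 and 3. Over all 9291 probe sets the median absolute log2 difference between a pair of control arrays was 0.200 to 0.244, and between mdx arrays 0.262 for 1 and 2, 0.327 for 1 and 3 and 0.253 for 2 and 3. The median SD over 3 arrays was 0.244 in mdx and 0.192 in controls, and was larger in mdx for 59.8% of probe sets; at the other 5 ages that share ran from 43.5% to 71.7%. Probe sets more than 1 log2 unit from the control mean numbered 1023 on mdx array 1, 614 on array 2 and 467 on array 3.

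The spread between mdx arrays was larger among the probe sets called than among the rest. The calls were made on these same arrays, so the values that follow are not independent of that choice. For the 249 rises the pair differences were 0.222 to 0.244 in controls and 0.408, 0.624 and 0.289 in mdx, in the same order of pairs. The SD was larger in mdx for 78.3% of the rises and 84% of the 75 falls, against 59.1% of probe sets not called. Among the rises mdx array 1 was highest in 186, array 2 in 50 and array 3 in 13, while over all probe sets the counts were 3334, 2358 and 3599; array 3 was lowest in 183. Among the falls array 1 was lowest in 59 of 75. Median differences of the rises from the control mean were 1.59, 1.13 and 0.90 on arrays 1, 2 and 3.

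**Figure D3:**
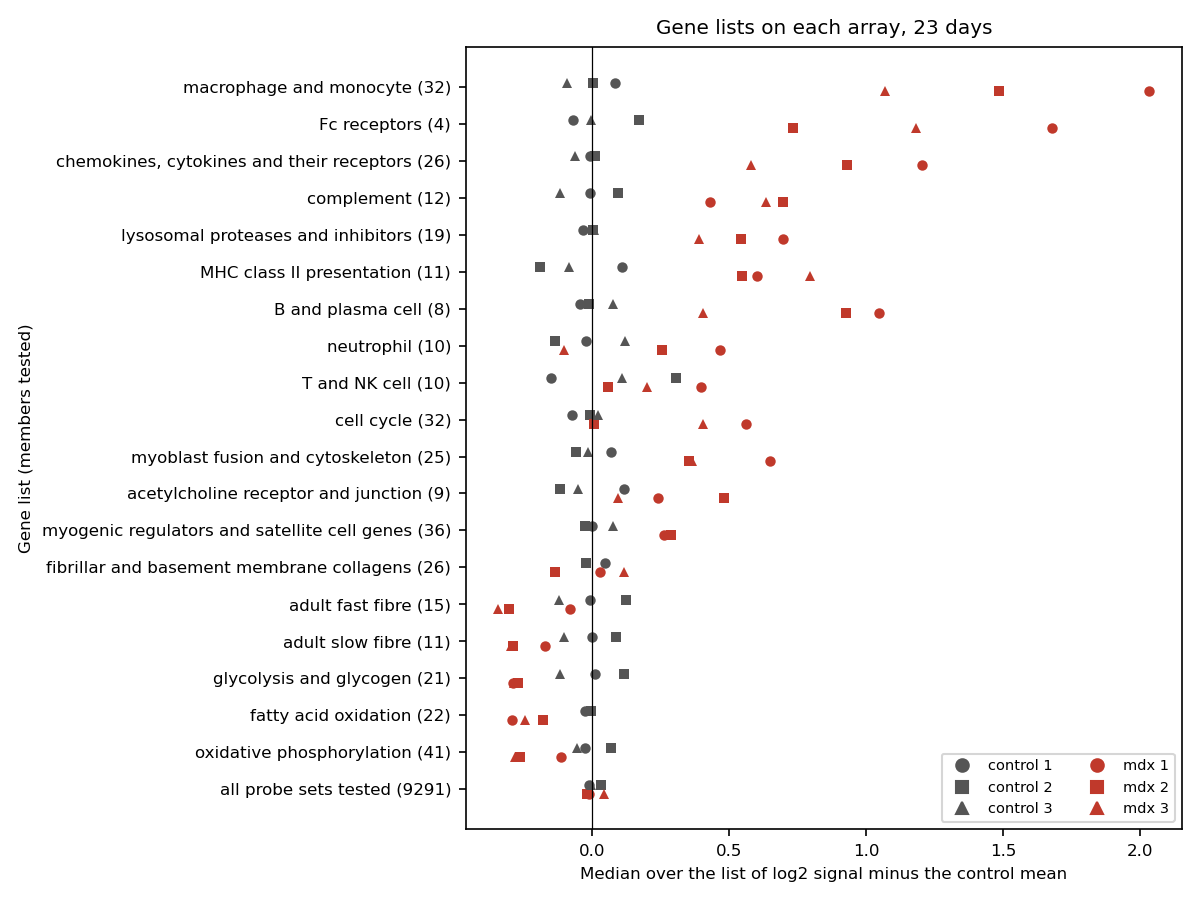
For 20 sets of genes, the median over the set of log2 signal minus the control mean (x axis), on each control array (grey) and mdx array (red); the number of members tested is in parentheses. The macrophage list runs from 1.07 on mdx array 3 to 2.03 on array 1, while the myogenic regulator list lies between 0.26 and 0.29 on all 3.

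The programmes did not share one order of arrays. Macrophage genes stood at 2.03, 1.49 and 1.07 on mdx arrays 1, 2 and 3, a range of 0.97 where control arrays ranged over 0.18, and chemokine genes at 1.20, 0.93 and 0.58. Cell cycle genes stood at 0.56, 0.01 and 0.40. The 9 acetylcholine receptor and junction genes stood at 0.24, 0.48 and 0.10, highest on array 2, a range of 0.39 where control arrays ranged over 0.24. Myogenic regulators stood at 0.26, 0.29 and 0.29, a range of 0.03 against 0.10 between controls. That evenness was of the list median: the median SD of its single genes was 0.286 in mdx and 0.178 in controls, larger in mdx for 25 of 36. Developmental contractile genes stood at 0.15, 0.01 and -0.05, highest on array 1, a range of 0.21 against 0.20 between controls. For these genes the pair differences in mdx, 0.146 to 0.319, were like those in controls, 0.122 to 0.306.

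Single genes marked the ends of this range. The 10 called rises of named genes with the largest mdx SD were Adam8, Igkv8-30, Igkv4-70, Ccl2, Igkv6-14, Ccl7, Myl6b, Clec4d, Il1rn and Chil3, from 1.35 down to 0.978. Mdx array 1 was the highest for all of them but Chil3. The 10 with the smallest SD, 0.0294 to 0.081, were Gdi2, Cd63, Tmem37, Anxa4, Slfn4, Myog, Rpl13a, Ext1, Col8a1 and Nnmt. Cd63, a membrane protein of late endosomes, read 9034.2 to 10375.9 in controls and 14859.0, 15785.0 and 14837.0 in mdx (0.64 ± 0.118, adjusted p = 0.00105). Slfn4, a myeloid gene of the Schlafen family, read 152.1 to 220.6 and 720.8, 745.6 and 684.1 (1.73, adjusted p = 0.00853; 1.59 and 0.0593 without control array 1). A small SD in a called rise is in part a product of the call itself. The actin ratio was also lowest on mdx array 1 and next on array 3; its part in the spread was not tested.

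**Figure D4:**
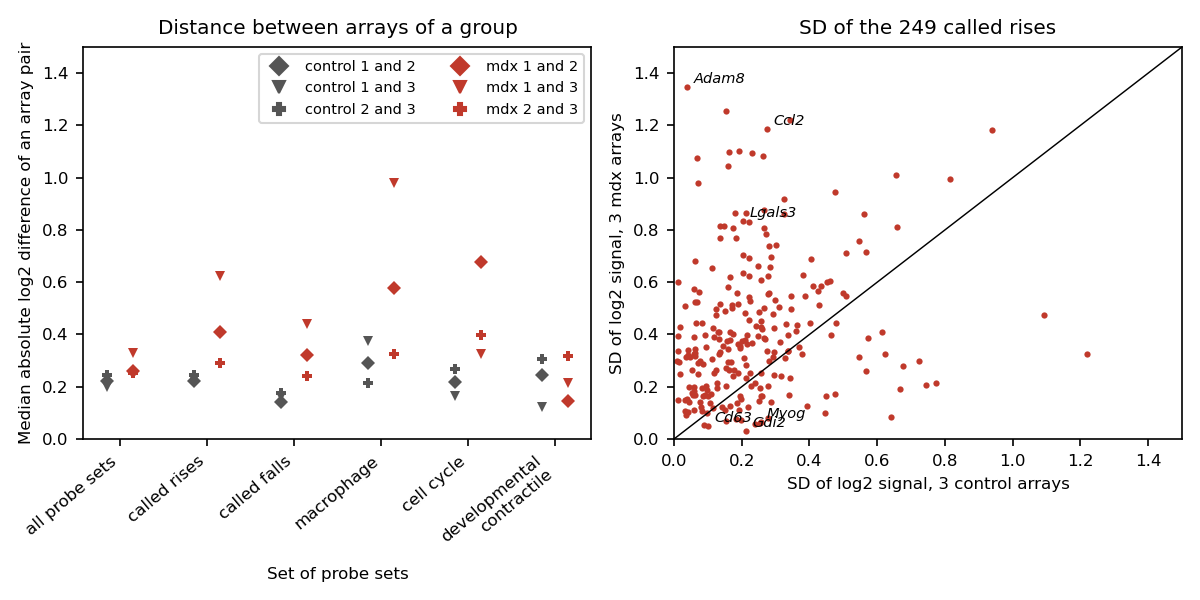
Left, the median absolute log2 difference of each pair of arrays within a group, for 6 sets of probe sets; right, the SD of log2 signal over the 3 mdx arrays against that over the 3 control arrays for the 249 called rises, with the line of equality. Macrophage genes reach 0.979 for mdx arrays 1 and 3, and most rises lie above the line, with Adam8 at 1.35 and Myog at 0.0657.

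The ages on either side, each with its own 3 control and 3 mdx arrays, place the changes in time. At 14 days 15 probe sets were higher in mdx (0.161%) and 3 lower (0.0323%); at 28 days 225 were higher (2.42%) and 50 lower (0.538%). Of the 249 rises at 23 days 6 were called at 14 days (2.41% of the 249, 40% of the 15) and 136 at 28 days (54.6% of the 249, 60.4% of the 225). At 28 days 94.4% of the 249 lay above 0, against 44.8% of all probe sets, and 76.7% had all mdx arrays above all controls, against 11.5%. At 14 days 24.1% were so separated, against 6.87%. Of the 75 falls 17 were called at 28 days (22.7%, 34% of the 50) and 1 at 14 days.

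The change between 14 and 23 days was tested as a difference of differences, which called 24 probe sets upward (0.258%) and 6 downward (0.0646%). Both muscle and myeloid genes were among them. The mdx minus control difference of Myl4 rose by 3.21 ± 0.361 (SE, adjusted p = 5.99e-06), of Myh8 by 3.03 ± 0.42 (0.000226) and of Myh3 by 3.56 ± 0.63 (0.00428). Chrng, Myog and Tubb6 followed with 2.21, 2.22 and 1.30 (adjusted p = 0.00358, 0.0125 and 0.00404). The value of Chrng is from its second probe set, the one that rose by 2.36 at 23 days. Myog went from -0.68 at 14 days to 1.54 at 23 days. Macrophage-associated Napsa and Plac8, the latter a cysteine-rich protein of myeloid cells, gained 3.34 and 2.38, and Ramp1 lost 1.26. Without control array 3 at 23 days 8 probe sets were called upward, without mdx array 1 13, and without mdx array 3 83; without control array 1 or 2 at 14 days the counts were 15 and 13.

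Some infiltration genes and the stress gene Mt2 already differed at 14 days. Ccl2 stood at 2.91 ± 0.458 then (adjusted p = 0.00101), Lgals3 at 1.67 ± 0.328 (0.0161), Ctss at 1.48 ± 0.21 (0.000343) and Mt2 at 1.49 (0.001), all of them called. Their gains to 23 days did not pass for Ccl2 (1.30, adjusted p = 0.534), Lgals3 (1.86, 0.0698) or Ctss (1.24, 0.0542). At 14 days the macrophage list had 1 call and a median of 0.22, and the developmental contractile list 0 calls and 0.17; at 23 days these medians were 1.55 and -0.04.

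Between 23 and 28 days the same test called 0 probe sets in either direction. Of the 9291 tested, 367 had an unadjusted p under 0.05 in that test. That is a smaller share than 0.05, the share such a cut gives with no change at all. The SE of this test pools the spread of all ages, so the share does not show that nothing changed. Under limma with array weights there were 6 upward and 21 downward calls, in a fit whose mdx side at 23 days rested mainly on array 2. Side by side, Myh3 stood at 3.99 and 5.62, Tnnt2 at 2.29 and 3.30, Chrna1 at 1.13 and 1.98 and Postn at 0.99 and 1.92 at 23 and 28 days, whereas Plac8 stood at 2.47 and 1.48, Adgre1 at 2.29 and 0.53 and Jchain at 1.52 and -0.90. The tests of the last 3 changes, and of Postn's, gave adjusted p of 0.86, 0.999, 0.325 and 0.325. For the 249 rises, a set chosen by the calls at 23 days, the SD was larger in mdx for 43.4% at 14 days, 78.3% at 23 days and 63.9% at 28 days. Over all probe sets tested these shares were 43.5%, 59.8% and 53.4%.

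**Figure D5:**
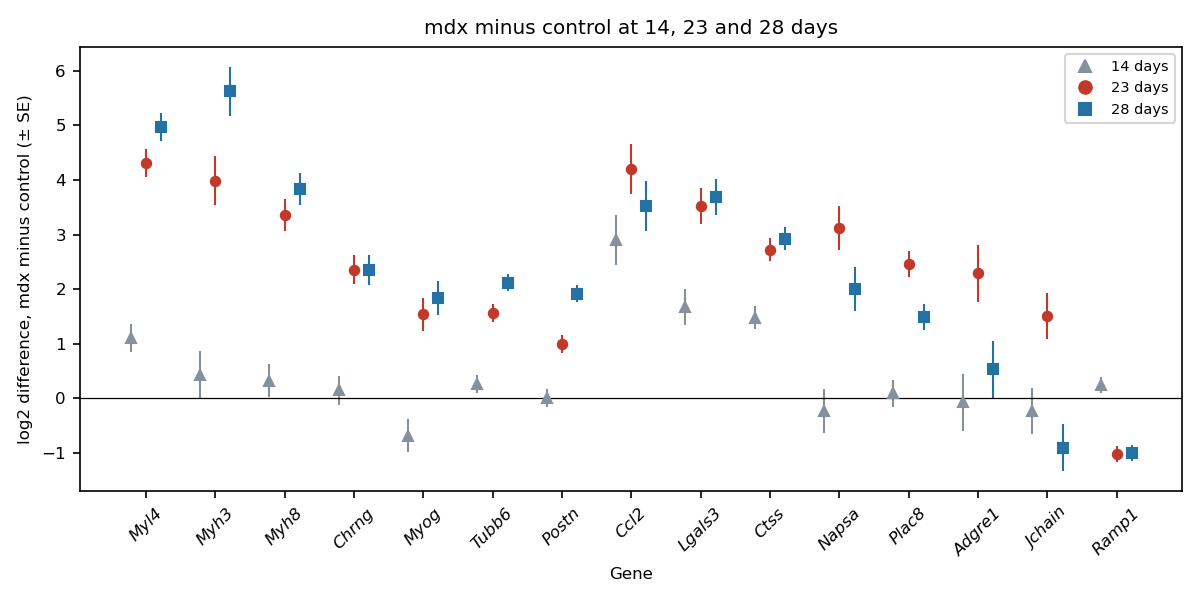
The log2 difference, mdx minus control, with its SE, of 15 genes at 14 days (triangles), 23 days (circles) and 28 days (squares), 3 arrays per group at each age. Myl4, Myh3, Myh8, Chrng (its second probe set) and Myog lie near or under 1.11 at 14 days and high at both later ages. Ccl2, Lgals3 and Ctss already lie above 1.4 at 14 days. Ramp1 is lower at 23 and 28 days only.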

How the data were processed

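Diaphragm RNA of mdx and control mice was measured on 1-colour short-oligonucleotide arrays, 36 in all, of which the 6 at 23 days are described and those at 14 and 28 days are set beside them. The deposited values are a linear intensity for each probe set, scaled by the authors to a like trimmed mean on every array (1499.3 to 1499.7 at 23 days). Which software computed them is a point the labels used here do not state. The 66 control probe sets were left out. Signals were taken as log2(value + 32), kept where at least 3 arrays passed percentile 40, and fitted in R 4.3.3 with limma 3.58.1 as 1 mean for each of 12 groups over all 36 arrays, with eBayes and a trend. The code was tested on simulated data. A gene with several probe sets is given in a list by the one with the highest mean log2 signal. Genes were named by rule: the 25 largest non-overlapping rises and 12 largest falls, list members past the threshold, members of largest and smallest SD, and the 8 lowest adjusted p of each age test; the members named that did not pass were chosen after their values were seen. The members and lists were chosen with earlier results of these data known. Alternatives were other pseudocounts, filters, normalizations, array weights, a replicate block, fewer ages, RNA ratios as covariates and each array left out. Replicate numbers did not pair the arrays: correlations of same-numbered deviations at 23 days were -0.0423, -0.106 and -0.131.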

Additional observations from a re-analysis of the deposited data

Results flagged for a closer look

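The difference between mdx and control at 23 days differed from that at 14 days for 30 probe sets, 24 upward and 6 downward, by a test of the change itself (limma interaction term, adjusted over all 9291 probe sets, 3 arrays per group and age). Of these, 11 belong to genes named for this test, for the spread between arrays or among the largest rises and falls, and are given here. Contractile genes of immature muscle gained 3.21 ± 0.361 for Myl4 (SE, adjusted p = 5.99e-06), 3.03 ± 0.42 for Myh8 (0.000226) and 3.56 ± 0.63 for Myh3 (0.00428). Ankrd1, the stress-responsive protein of the sarcomere, gained 2.42 ± 0.44 (0.0056). On its second probe set the fetal receptor subunit Chrng gained 2.21 ± 0.379 (0.00358). The myogenic factor Myog gained 2.22 ± 0.431 (0.0125) and the tubulin Tubb6 1.30 ± 0.227 (0.00404). Among genes of myeloid cells, Napsa gained 3.34 ± 0.572 (0.00358), Plac8 2.38 ± 0.338 (0.000239) and Fcgr1 2.91 ± 0.591 (0.0186). The value of Fcgr1 is from the probe set that rose by 3.02 at 23 days. The difference of Ramp1 changed by -1.26 ± 0.208 (0.00271). All 11 passed in the fit with every array; counts of calls without single arrays are given with the comparison of ages.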

How the results depend on the processing

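None of the 126 called probe sets of named genes that were checked reversed under the 18 alternatives, and 59 kept their call under all of them. At 23 days the count of rises was 740 with array weights, 156 with only the ages compared, and 106 to 320 leaving out 1 array. The fit with array weights gave mdx arrays 1, 2 and 3 at 23 days weights of 0.605, 3.94 and 0.603. Its mdx side at that age thus rested mainly on array 2. The count of falls was 43 with quantile normalization, 553 with array weights, 43 with only the ages compared, and 19 to 229 leaving out 1 array. With the replicate number as a block, 186 probe sets were higher and 42 lower, although the numbers did not pair the arrays. For the change from 14 to 23 days, upward calls numbered 10 with quantile normalization, 130 with array weights, 8 with only the ages compared and 8 to 83 leaving out 1 array. Downward calls numbered 3 with no filter, quantile normalization, the replicate block, eBayes without a trend or either RNA ratio as a covariate, 10 with the stricter filter, 75 with array weights and 1 to 56 leaving out 1 array. From 23 to 28 days array weights gave 6 upward and 21 downward calls, and leaving out 1 array 0 to 1 and 0 to 2. The median SD was 0.199 in controls and 0.254 in mdx with the pseudocount 4 times lower, 0.170 and 0.212 with it 4 times higher, 0.224 and 0.271 with no filter, 0.159 and 0.210 with the stricter filter, 0.171 and 0.224 with quantile normalization, and 0.142 to 0.192 and 0.179 to 0.244 leaving out 1 array. The share with the larger SD in mdx was 57.4% with no filter, 63.0% with the stricter filter, 61.2% with quantile normalization and 47.5% to 69.9% leaving out 1 array, where SDs over unequal numbers of arrays are not comparable. The cause of these shifts was not tested. With 3 arrays a group, small changes and dim genes are the least certain.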
